A study of Mus musculus with 6 samples.

Results

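The mouse Skint gene family (selection and upkeep of intraepithelial T cells) was followed through 6 libraries of chemically induced skin carcinogenesis. Its members were the gene models of the deposited table named Skint and a number from 1 to 11, which gave 11 of 23726 models. The family was picked because Skint10 was lower in the lesions than in skin, so all comparisons of Skint genes in papilloma or tumour with skin are given as values without a test. The biopsies were 1 of healthy skin (S), 2 of distinct papillomas (P1 and P2, here papilloma 1 and papilloma 2) and 1 of a tumour (T), with the lesions induced by DMBA, which mutates DNA, followed by TPA, which keeps keratinocytes dividing. The cultured cells were mSCC-20, labelled non tumorigenic, and mSCC-38, labelled highly tumorigenic, each isolated from a DMBA/TPA tumour. The labels give no strain, age or sex, and do not say whether any samples came from the same mouse. Only papilloma has more than 1 library, so other values carry no replicate error, and p-values measure the spread between the papillomas alone.

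Skint proteins are butyrophilin-like membrane proteins with immunoglobulin domains, made by keratinocytes and by thymic epithelium. Skint1, the founding member, is needed for the thymic selection of dendritic epidermal T cells, the gamma delta T cells with an invariant receptor that fill mouse epidermis and touch keratinocytes. These T cells watch for stressed keratinocytes through receptors such as Klrk1 (NKG2D) and are known to restrain skin carcinogenesis by DMBA and TPA.

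The 11 genes lie in 1 cluster on chromosome 4, from 111592160 to 113917633 in build mm9. They run in the order Skint8, Skint7, Skint1, Skint4, Skint3, Skint9, Skint2, Skint10, Skint6, Skint5 and Skint11. Skint10 occupies 112383435 to 112447466 on the minus strand. No other gene model of the table overlapped a member (0 overlaps). The members arose from each other by duplication, so reads could be shared between them. In GENCODE M21 transcripts, 0.187% of the 35-base words of Skint10 also occurred in another gene on either strand. The share was 9.53% for Skint6 and 7.50% for Skint5, mostly in each other, and 14.8% for Skint8 and 11.4% for Skint7, which also share most with each other. Skint11 shared 10.1%, nearly all with the gene model Gm12813. Values of these 5 genes are therefore less certain as single-gene values than those of Skint10 and Skint1 (0.0996%).

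All 11 members matched a start site in the RefSeq promoter table (12 sites, build GRCm38.p6, 250 bases before to 50 after each start). Skint6 and Skint5 had the most identical bases of any pair compared here, 269 of 300 aligned, while Skint10 and Skint11 had 213 of 247 and Skint8 and Skint7 112 of 120. Skint10 also had 201 of 252 aligned bases identical with Skint9 and 182 of 244 with Skint7. The last value is not particular to that pair, as Skint7 had 182 of 241 with Skint2. Whether promoter likeness goes with the level in lesions was not tested. The sequences of 4 genes are shown, the pair Skint10 and Skint11 and the pair Skint7 and Skint8. The closest pair, Skint6 and Skint5, is not printed. Capitals mark the longest run of letters that the genes of a printed pair share, 20 bases for Skint10 and Skint11 and 51 for Skint7 and Skint8.
Skint10 (chr4:112774812-112775111, minus strand): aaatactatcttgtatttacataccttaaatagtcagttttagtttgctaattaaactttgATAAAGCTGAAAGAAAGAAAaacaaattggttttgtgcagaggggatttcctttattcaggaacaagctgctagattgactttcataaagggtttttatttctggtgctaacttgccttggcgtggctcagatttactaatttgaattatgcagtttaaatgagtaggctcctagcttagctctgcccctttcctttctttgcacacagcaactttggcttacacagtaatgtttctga
Skint11 (chr4:114163134-114163433, plus strand): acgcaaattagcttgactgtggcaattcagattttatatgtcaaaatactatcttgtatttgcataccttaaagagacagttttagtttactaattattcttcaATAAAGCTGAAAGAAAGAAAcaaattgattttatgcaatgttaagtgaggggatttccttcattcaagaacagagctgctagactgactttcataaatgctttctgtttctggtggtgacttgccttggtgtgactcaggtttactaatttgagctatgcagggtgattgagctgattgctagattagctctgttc
Skint7 (chr4:111972677-111972976, plus strand): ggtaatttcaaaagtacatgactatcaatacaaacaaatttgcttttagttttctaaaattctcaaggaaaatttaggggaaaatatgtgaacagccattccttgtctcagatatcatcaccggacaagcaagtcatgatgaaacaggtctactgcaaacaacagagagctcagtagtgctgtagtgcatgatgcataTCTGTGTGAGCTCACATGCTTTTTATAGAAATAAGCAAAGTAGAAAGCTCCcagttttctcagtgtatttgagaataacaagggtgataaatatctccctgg
Skint8 (chr4:111919305-111919604, plus strand): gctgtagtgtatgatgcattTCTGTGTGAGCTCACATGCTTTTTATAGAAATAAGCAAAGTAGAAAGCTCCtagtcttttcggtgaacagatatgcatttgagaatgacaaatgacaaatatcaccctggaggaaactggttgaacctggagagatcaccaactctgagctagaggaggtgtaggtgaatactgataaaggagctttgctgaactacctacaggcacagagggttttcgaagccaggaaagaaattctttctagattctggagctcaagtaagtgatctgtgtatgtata
The shared run of Skint7 and Skint8 began at position -52 of Skint7 and -230 of Skint8, counted from the annotated start of each gene. The AP-1 site TGANTCA, which TPA-activated factors bind, was searched on both strands and occurred in 1 of the 12 Skint promoters, that of Skint11, against 7.81% of 32851 promoters in the table. The letters TATAAA, on either strand, occurred in 8 of the 12 and in 13.6% of all.

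Total counts ranged from 25140489 to 42992597 per library. Values are CPM, counts per 1000000 counts with each library's total scaled by its TMM factor, a scaling that assumes most genes do not change. A count of 0 allows up to 3 counts, or 0.0604 to 0.141 CPM in these libraries, and this limit, like every interval below, covers counting error only. In bulk samples, fewer cells of a type and less RNA per cell cannot be told apart. The RNA integrity number was 7.5 in skin and 8.2 to 9.1 in the lesions, and its part in the differences was not tested.

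Skint10 was by far the most abundant member in healthy skin. It had 3661, 96, 111 and 10 counts in skin, papilloma 1, papilloma 2 and the tumour, and 1 and 2 counts in mSCC-20 and mSCC-38. In CPM this came to 4.21 ± 0.410 in papilloma (SD, n = 2), against 73.6 in skin, or 5.72% of the skin level. In the tumour it came to 0.237 CPM, 0.322% of the skin level and 310.3-fold lower than skin (95% interval 169 to 648). These shares and folds have no pseudocount, and with 0.5 CPM added to both sides the log2 ratio of tumour to skin was -6.65. The papillomas lay close together, at 6.11% and 5.32% of skin, and the tumour lay below both. By deposited RPKM, counts per kilobase of model and per 1000000 counts, Skint10 ranked 1515 of the 23726 models in skin, 10508 and 11050 in papilloma 1 and papilloma 2, and 14950 in the tumour.

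**Figure D1:**
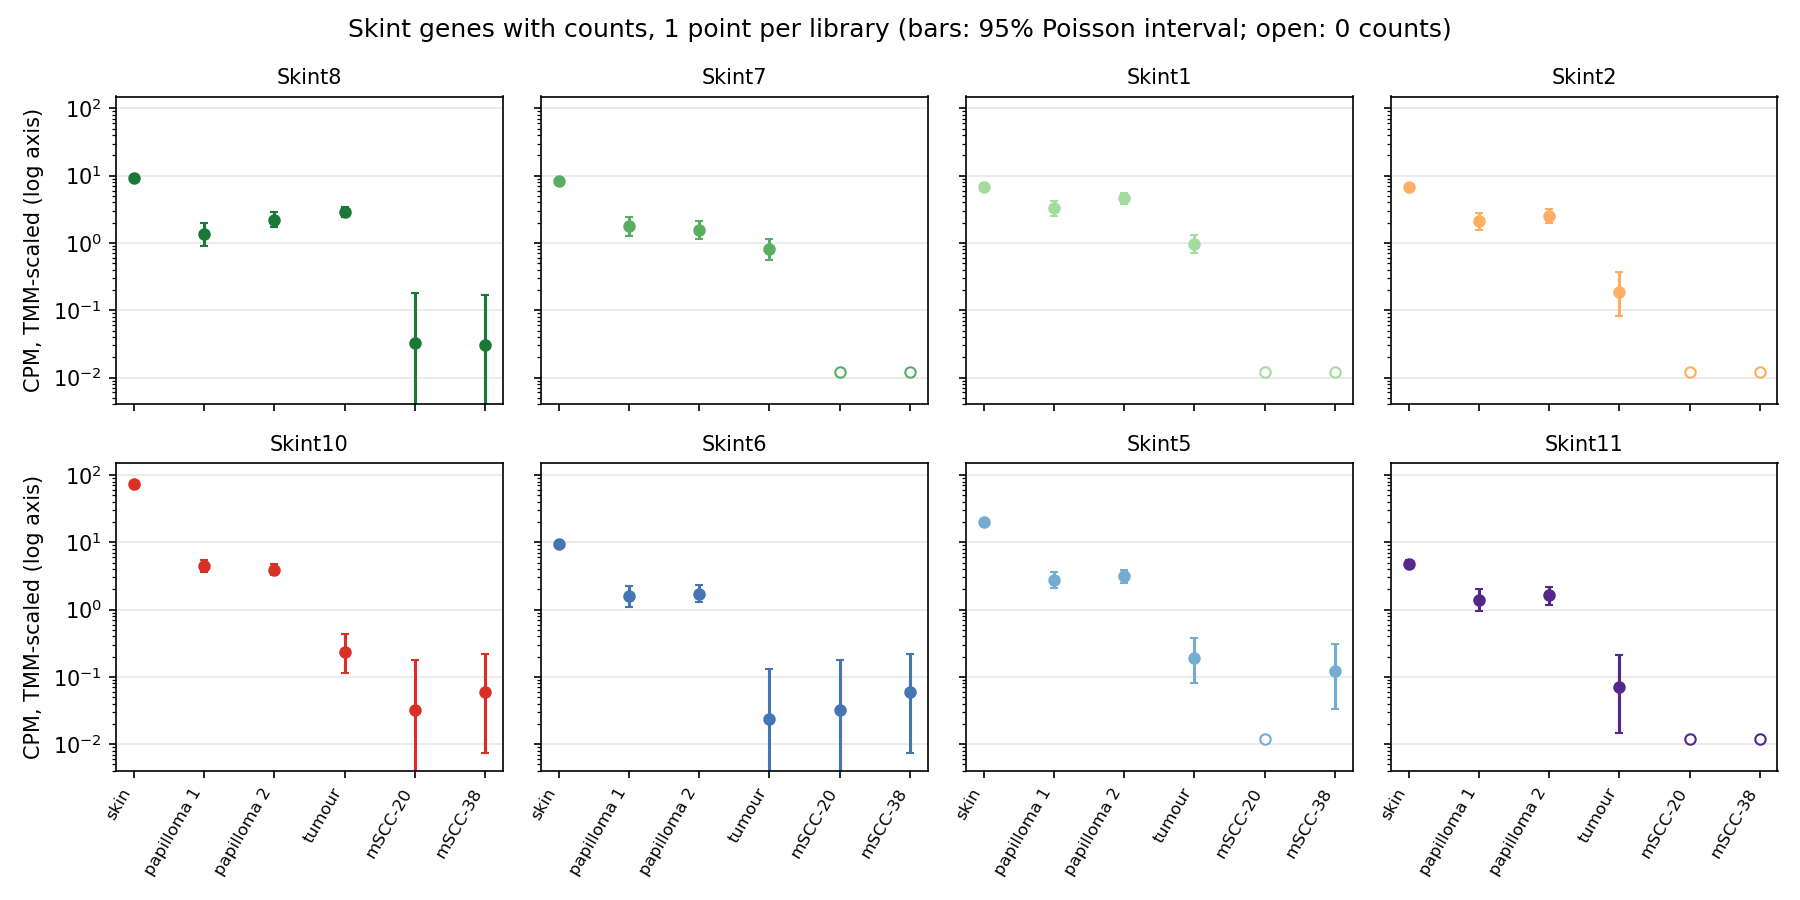
CPM of the 8 Skint genes with more than a handful of counts in each of the 6 libraries (log axis), 1 point per library with its 95% Poisson interval, cut at the lower end of the axis. Open points mark 0 counts. Skint10 is at 73.6 CPM in skin and 0.237 CPM in the tumour, while Skint8 stays at 2.90 CPM in the tumour.

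Of the other members, 7 lay between 3 and 8.75 RPKM in skin. Per length, in RPKM, Skint10 was at 51.5, followed by Skint8 at 8.75, Skint1 at 6.62, Skint5 at 5.44, Skint2 at 4.90, Skint7 at 4.29, Skint11 at 4.18 and Skint6 at 3. The counting intervals of Skint5 and Skint2, of Skint2 and Skint7, and of Skint7 and Skint11 overlapped, so the order among these neighbours is not resolved. Skint3, Skint9 and Skint4, which lie side by side in the middle of the cluster, were at 0.05 RPKM or less in every library. They had 8, 1 and 1 counts in skin and 9, 1 and 3 counts in all 6 libraries together, too few for any comparison.

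Skint1, the selection gene itself, kept the largest share of its skin level in papilloma. It had 342, 70, 130 and 41 counts in skin, papilloma 1, papilloma 2 and the tumour. Its level was 3.94 ± 0.926 CPM in papilloma (SD, n = 2), against 6.88 CPM in skin, or 57.2% of skin. In the tumour it was at 0.973 CPM, 14.1% of skin. Per length it was the highest member in both papillomas, at 2.24 and 3.48 RPKM, although in papilloma 1 Skint10 at 2.23 RPKM was not separable from it by counting error.

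Skint2, also named B7S3, had 338, 45, 71 and 8 counts in skin, papilloma 1, papilloma 2 and the tumour. It was at 2.31 ± 0.281 CPM in papilloma, against 6.80 CPM in skin, and at 0.190 CPM in the tumour, 2.79% of skin. Skint5 had 997, 59, 88 and 8 counts in the same order. Its papilloma level was 14.6% and its tumour level 0.947% of skin. Skint6, the neighbour of Skint10, had 467, 34, 49 and 1 counts, and was at 17.7% of skin in papilloma. With 1 count, the tumour was 396-fold lower than skin for Skint6, with a 95% interval of 70.7 to 15666. Skint11, at the far end of the cluster, had 239, 30, 46 and 3 counts, with 31.5% of the skin level left in papilloma and 1.48% in the tumour.

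Skint8 and Skint7 lie at the other end of the cluster. Skint8 had 459, 29, 63 and 122 counts in skin, papilloma 1, papilloma 2 and the tumour, and was at 1.79 ± 0.612 CPM in papilloma (SD, n = 2), against 9.23 CPM in skin. In the tumour it was at 2.90 CPM, 31.4% of skin and above the papillomas, which had 1.36 and 2.22 CPM. By counts the tumour was 2.13 times papilloma 1, with a 95% interval of 1.41 to 3.31. It was 1.30 times papilloma 2, with a 95% interval of 0.953 to 1.79, so tumour and papilloma 2 were not separable by counting error. Skint7 had 410, 38, 44 and 34 counts, with 20.2% of the skin level in papilloma and 9.78% in the tumour. Its tumour value of 0.807 CPM was below both papillomas, at 1.78 and 1.55 CPM.

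Of the 11 members 8 passed the filter on low counts. Among these 8, 5 were at least 4-fold lower in papilloma than in skin (with 0.5 CPM added to each side), against 4.55% of the 16302 genes tested (2.91% were as much higher), and 7 were at least 4-fold lower in the tumour than in skin, against 9.01% (4.64% were as much higher). As the family was picked on these contrasts, these counts are a description only.

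The tumour was then compared with the papillomas. The choice of the family used both sides of this contrast through the levels of Skint10, which therefore gets no test here. Other members follow Skint10 to differing degrees across the libraries, as given below, so their calls are not independent of that choice. edgeR's quasi-likelihood test called 5 of the 7 other tested members lower in the tumour at an adjusted p under 0.05, against 10.6% of all 16302 genes (22.7% were called in either direction). No member was called higher (0 by edgeR and 0 by DESeq2's Wald test, and 0 before adjustment at p under 0.05). The median log2 fold change of these 7 was -3.58, against -0.01 over all genes tested. Skint6 changed by -5.93 ± 0.65 (SE, edgeR adjusted p = 0.00709). This value rests on 1 tumour count, and the ratio of counts put the tumour 70.4-fold lower, with a 95% interval of 12.3 to 2815. The SE of each edgeR log2 change, throughout, is that change divided by the square root of the test's F statistic. DESeq2's own SE was larger for each of these 7 genes, at 1.60 for Skint6 and 1.18 for Skint11. It was 0.87 for Skint2, 0.74 for Skint7, 0.72 for Skint5, 0.69 for Skint8 and 0.68 for Skint1. The edgeR SEs can therefore understate the error, and not only at few counts. Skint11, with 3 tumour counts, was 21.5-fold lower (95% interval 7.08 to 107; edgeR adjusted p = 0.0127). Skint5 changed by -3.93 ± 0.40 (edgeR adjusted p = 0.00592) and Skint2 by -3.58 ± 0.50 (edgeR adjusted p = 0.0118). Skint1 changed by -2.02 ± 0.42 (edgeR adjusted p = 0.0322), a call lost when libraries were scaled by total counts (adjusted p = 0.0654). Skint7 did not pass, at -1.04 ± 0.40 (edgeR adjusted p = 0.127). Skint8 had the only positive value, 0.68 ± 0.42 (edgeR adjusted p = 0.289), and did not pass either. Each of these 7 genes had at least 29 counts in each papilloma. The spread in this fit comes from the papillomas alone (1 residual degree of freedom), and the tumour is assumed to vary likewise. Whether members differ from each other in this change was not tested.

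**Figure D2:**
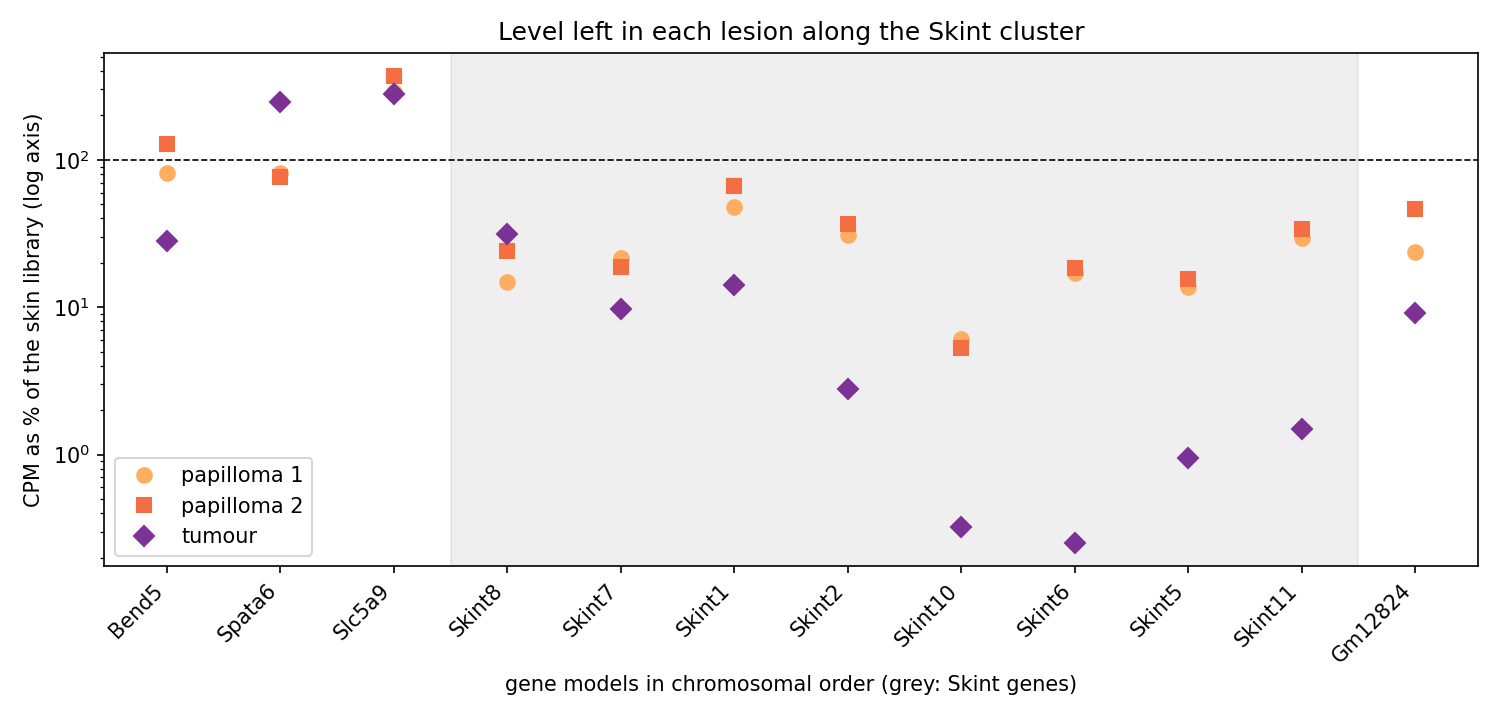
CPM in papilloma 1, papilloma 2 and the tumour as a percentage of the skin library (log axis) for the 8 Skint genes with counts (grey field) and their flanking gene models with at least 10 skin counts, in chromosomal order. The tumour is at 9.78% to 31.4% of skin for the first 3 Skint genes and at 0.253% to 2.79% for the other 5.

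By position, the tumour values fell into separate ranges. Skint8, Skint7 and Skint1, which lie before the scarcely detected genes Skint4, Skint3 and Skint9, were at 9.78% to 31.4% of skin in the tumour. Skint2, Skint10, Skint6, Skint5 and Skint11, which lie after them, were at 0.253% to 2.79%. In papilloma the first 3 genes were at 19.4% to 57.2% of skin and the other 5 at 5.72% to 34.0%, ranges that overlap. This grouping was made after the values were seen and has no test. Both strands occur among the later genes, with Skint2 and Skint11 on the plus strand and Skint10, Skint6 and Skint5 on the minus strand.

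The make-up of the family differed between the biopsies. Skint10 gave 4.41% of all Skint counts in the tumour (95% exact Clopper-Pearson interval 2.13% to 7.95%), 23.8% and 18.4% in papilloma 1 and papilloma 2, and 52.9% in skin (interval 51.7% to 54.1%). Skint8 gave 53.7% in the tumour (interval 47.0% to 60.4%), 7.20% and 10.4% in the papillomas, and 6.63% in skin. Per base of gene model, Skint8, Skint7 and Skint1 together made up 90.6% of the Skint transcripts in the tumour, 42.8% and 49.9% in papilloma 1 and papilloma 2, and 22.1% in skin. The whole family summed to 5.39 CPM in the tumour, 18.9 and 21.3 CPM in papilloma 1 and papilloma 2, and 139 CPM in skin.

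**Figure D3:**
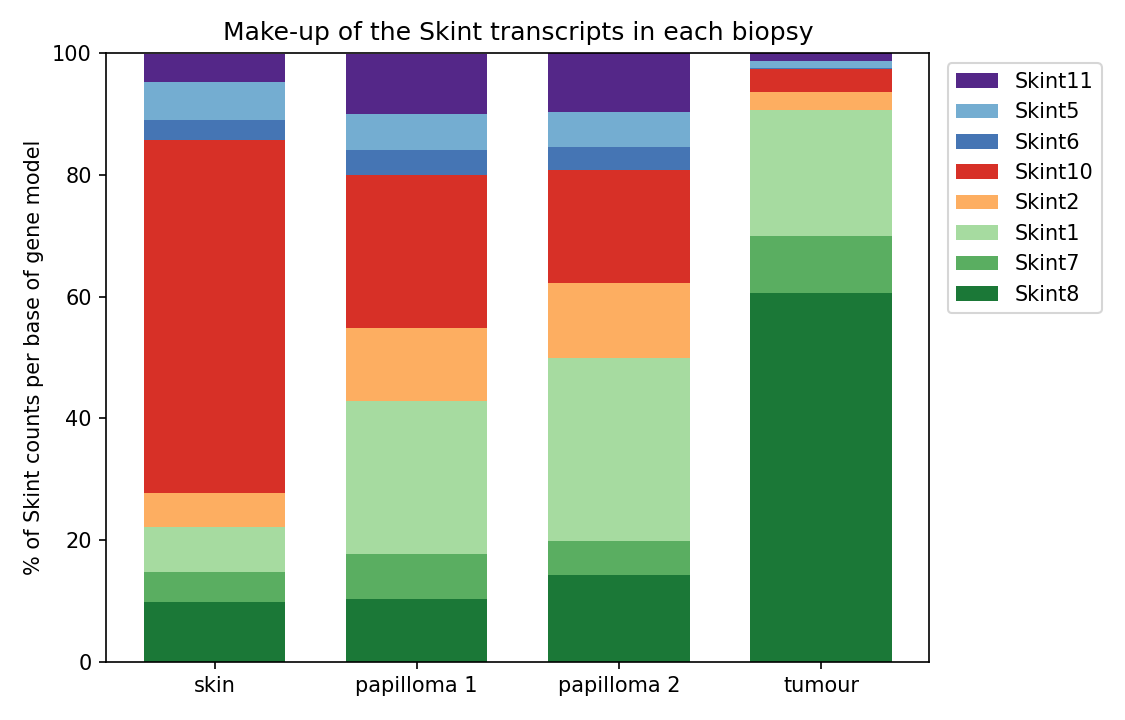
Share of each Skint gene among all Skint counts per base of gene model in the 4 biopsies, stacked in chromosomal order from Skint8 at the bottom. Skint10 is the largest part in skin (58.0%) and Skint8 in the tumour (60.7%).

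In the cultured carcinoma cells the family had very few counts. mSCC-38 had 9 Skint counts in all, 4 of them in Skint5, and mSCC-20 had 3. The Skint10 counts were 0.0819% of the skin level in mSCC-38 and 0.0441% in mSCC-20. For comparison, 11 hair follicle genes with at least 100 CPM in skin had medians of 0.0597% and 0.0899% of skin in mSCC-38 and mSCC-20, with single genes as high as 391% and 5.97%. The same genes had a median of 0.0934% of skin in the tumour, where Skint10 was at 0.322%. Whether the few Skint counts in culture come from the cells was not tested. The cultures were not compared with each other.

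The flanking genes did not share 1 course. Slc5a9, a sugar transporter gene just before Skint8, rose in papilloma to 72.5 ± 12.2 CPM (SD, n = 2), against 22.0 CPM in skin, a change of 1.72 ± 0.22 in log2 (edgeR adjusted p = 0.0115), and was at 61.3 CPM in the tumour. Spata6, a spermatogenesis gene, rose in the tumour to 26.8 CPM, against 8.52 ± 0.355 CPM in papilloma (edgeR adjusted p = 0.00832). Gm12824, the next model after Skint11, fell in the tumour to 2.75 CPM, against 10.5 ± 4.91 CPM in papilloma (edgeR adjusted p = 0.0483). Its papilloma level, against 30.0 CPM in skin, did not pass (edgeR adjusted p = 0.0554). Bend5 did not pass in papilloma (edgeR adjusted p = 0.906) or in the tumour (edgeR adjusted p = 0.0581). Agbl4 had 2 counts at most in any library.

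Skint genes are epidermal, so epidermal genes give the setting of these values. Of 16 tested genes of the suprabasal epidermis, the layers where keratinocytes differentiate, 9 rose and 2 fell in papilloma (edgeR over all genes, where 12% rose, 14.3% fell and so 26.2% passed; median log2 fold change 1.59, against -0.06 over all genes). Casp14, a cornification protease gene, was at 1544 ± 9.03 CPM in papilloma, against 140 CPM in skin. Flg2, a filaggrin relative, fell to 191 ± 19.2 CPM, against 787 CPM in skin. In the tumour 12 of the 16 fell against papilloma, where 10.6% of all genes fell, with a median of -4.95. Flg2 was at 2.30 CPM in the tumour, and Krt10, a keratin of these layers, at 94.6 CPM, against 9577 ± 1768 CPM in papilloma. Of 12 basal epidermis genes 7 rose and 2 fell in papilloma, and 4 rose in the tumour against papilloma, where 12.1% of all genes rose. The integrin gene Itga3 was among these 4 (1.82 ± 0.22, edgeR adjusted p = 0.00822). For 1000 counts of Krt10, all Skint genes together had 57.0 counts in the tumour, 1.74 and 2.56 in papilloma 1 and papilloma 2, and 30.0 in skin. Skint10 alone had 2.51 in the tumour, 0.416 and 0.471 in the papillomas, and 15.8 in skin. Set against Krt14, the basal keratin, the family had 0.396 counts per 1000 in the tumour, 0.767 and 1.20 in the papillomas, and 74.7 in skin. The family was therefore higher in the tumour than in papilloma relative to Krt10, and lower relative to Krt14.

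**Figure D4:**
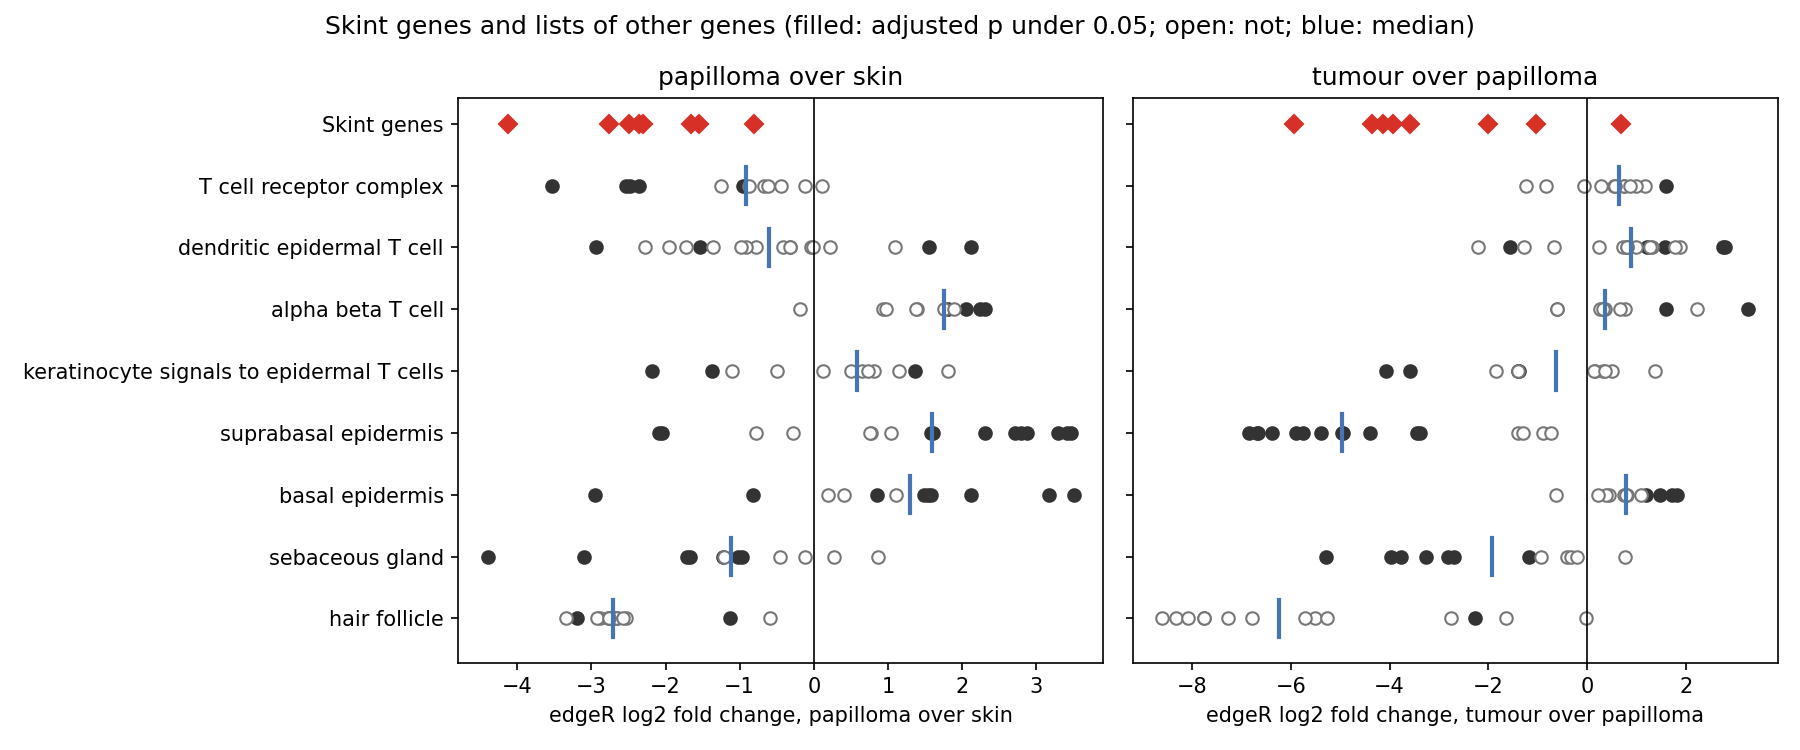
edgeR log2 fold changes of papilloma over skin (left) and tumour over papilloma (right) for the 8 tested Skint genes (diamonds, drawn without their test) and 8 lists of other genes (filled circles passed at an adjusted p under 0.05, open circles did not, blue bars are medians). Suprabasal genes have a median of 1.59 in papilloma over skin and -4.95 in tumour over papilloma.

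Of 12 genes of the T cell receptor complex and its signalling, 5 fell in papilloma, against 14.3% of all genes (median log2 fold change -0.92). Cd3e and Cd3g, subunits of the receptor's signalling complex, had 1.90 ± 0.634 and 2.11 ± 0.334 CPM in papilloma (SD, n = 2), against 10.9 and 10.8 CPM in skin (edgeR adjusted p = 0.0164 and 0.0132). Cd247, the zeta chain gene, and Thy1, a surface marker that other skin cells carry as well, also fell (edgeR adjusted p = 0.0175 and 0.0263). Against papilloma, where 22.7% of all genes passed in the tumour, only the pan-leukocyte gene Ptprc of this list did. Ptprc was at 67.5 CPM in the tumour, against 22.3 ± 0.752 CPM in papilloma. Cd3e was at 3.70 CPM in the tumour (edgeR adjusted p = 0.146 against papilloma). The receptor gamma and delta chain genes were not analysed here, so these genes do not separate epidermal T cells from other T cells.

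Of 18 genes linked to dendritic epidermal T cells, 2 fell and 2 rose in papilloma (median -0.60), which is no more than the 14.3% and 12% over all genes. Cd7 fell to 1.16 ± 0.0877 CPM, against 8.89 CPM in skin (edgeR adjusted p = 0.0106), and the chemokine receptor gene Ccr4 fell to 2.09 ± 0.696 CPM, against 6.08 CPM in skin (edgeR adjusted p = 0.0421). In the tumour Ccr4 rose to 14.2 CPM, against papilloma (edgeR adjusted p = 0.0107). Sema4d, which epidermal T cells use to bind plexins but which epithelium also makes, rose to 83.9 ± 4.64 CPM, against 28.7 CPM in skin (edgeR adjusted p = 0.0110). Klrk1 had 0.634 ± 0.297 CPM in papilloma, against 2.07 CPM in skin, and did not pass (edgeR adjusted p = 0.0784). In the tumour 4 of the 18 rose and 1 fell against papilloma, where 12.1% of all genes rose and 10.6% fell. The granule protease gene Gzmb was at 6.17 CPM in the tumour, against 0.887 ± 0.0055 CPM in papilloma (edgeR adjusted p = 0.0119), while Egr3, a factor of T cell receptor signalling, fell to 11.5 CPM, against 33.9 ± 6.55 CPM in papilloma (edgeR adjusted p = 0.0135).

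Of 11 tested genes of alpha beta T cells, 4 rose in papilloma, against 12% of all genes (median 1.75). DESeq2's Wald test called 2 of the 11 higher, so this count depends on the test. Icos, a costimulatory receptor gene, was at 6.71 ± 0.851 CPM in papilloma, against 1.61 CPM in skin (edgeR adjusted p = 0.0204). In the tumour 2 of the 11 rose and 0 fell against papilloma, where 12.1% of all genes rose (median 0.36). DESeq2's Wald test called 1 of the 11 higher there. By edgeR Cd8a, of cytotoxic T cells, was 1 of these 2, at 8.14 CPM in the tumour, against 0.874 ± 0.687 CPM in papilloma (edgeR adjusted p = 0.0326). Cd8b1, the gene of its partner chain, did not pass (edgeR adjusted p = 0.0555), and Icos was at 4.39 CPM in the tumour. Of 9 genes tested from a list for interleukin 17-producing gamma delta T cells, 3 fell in papilloma, against 14.3% of all genes. Among them were Sox13 and Il1r1, at 19.5 ± 1.34 and 39.6 ± 8.04 CPM in papilloma (SD, n = 2), against 46.4 and 76.9 CPM in skin (edgeR adjusted p = 0.0115 and 0.0337). In skin both were well above the T cell genes Cd3e and Cd3g, given above.

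Of 12 tested genes through which keratinocytes signal to epidermal T cells, 1 rose and 2 fell in papilloma, a share near the 26.2% over all genes. With DESeq2's Wald test 4 rose and 1 fell, and the list's median was 0.58, so the balance of directions depends on the test. H60c, a ligand of Klrk1 made by keratinocytes, rose to 57.4 ± 3.61 CPM, against 22.2 CPM in skin (edgeR adjusted p = 0.00981), and fell to 21.6 CPM in the tumour, against papilloma (edgeR adjusted p = 0.00738). Ccl27a, a skin chemokine gene, fell to 2.31 ± 0.223 CPM in papilloma, against 10.5 CPM in skin (edgeR adjusted p = 0.0155), and to 0.190 CPM in the tumour, against papilloma (edgeR adjusted p = 0.00977). Il15, a survival cytokine for these T cells, fell to 2.67 ± 0.0666 CPM in papilloma, against 6.96 CPM in skin (edgeR adjusted p = 0.0375). In the tumour 4 of the 12 fell against papilloma, where 10.6% of all genes fell. The cytokine gene Tslp and Cxadr, the ligand of the epidermal T cell receptor JAML, were 2 of these 4. Their levels were 1.09 and 98.3 CPM in the tumour, against 18.4 ± 11.6 and 257 ± 58.2 CPM in papilloma (edgeR adjusted p = 0.0227 and 0.0302).

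The butyrophilin relatives of the Skint genes were scarce. Of 4 tested, no gene passed in papilloma (0 by edgeR and 0 by DESeq2's Wald test, with 2 lower before adjustment). Btnl9 was at 0.945 ± 0.188 CPM in papilloma, against 3.04 CPM in skin, and Btnl2 at 1.74 ± 0.0609 CPM, against 1.85 CPM in skin. In the tumour Btnl2 fell to 0.332 CPM (edgeR adjusted p = 0.0381), while DESeq2's Wald test called 0 of the 4 lower, and Btn1a1, the milk fat butyrophilin, was at 2.99 CPM, against 0 counts in papilloma 1 and 1 count in papilloma 2 (edgeR adjusted p = 0.00892).

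Markers of other tissue were counted against the shares over all genes, 12% higher and 14.3% lower in papilloma and 12.1% higher and 10.6% lower in the tumour against papilloma. In papilloma 7 of 12 sebaceous gland genes, 3 of 14 hair follicle genes, 11 of 12 skeletal muscle genes, 8 of 12 adipocyte genes and 3 of 10 fibroblast genes fell, while 1 fibroblast gene and 1 of 10 Langerhans and dendritic cell genes rose. Summed over each list, sebaceous genes were at 2074 and 2158 CPM in the papillomas, against 3709 CPM in skin. Scd1 alone gave 2342 CPM of that skin sum, so single genes can differ from it. Hair follicle genes summed to 184 and 5642 CPM in papilloma 1 and papilloma 2, against 18935 CPM in skin. Against papilloma, 7 sebaceous, 2 adipocyte, 1 muscle, 1 hair follicle and 3 fibroblast genes fell in the tumour by edgeR, and 1 fibroblast gene rose. Among Langerhans and dendritic cell genes 1 rose and 1 fell. The edgeR counts for hair follicle and Langerhans and dendritic cell genes in both comparisons, and for muscle genes in the tumour, rest on 1 to 3 genes each. With DESeq2's Wald test 6 muscle, 3 hair follicle, 7 sebaceous, 3 adipocyte and 3 fibroblast genes fell in the tumour. By that test 3 Langerhans and dendritic cell, 2 fibroblast and 1 sebaceous gene rose, and 1 Langerhans and dendritic cell gene fell. The muscle and hair follicle counts in the tumour thus depend on the test, and their median log2 fold changes were -1.32 and -6.24. The part of these tissues in the Skint values was not tested. Beside that gap in hair genes between the papillomas, Skint10 was at 4.50 CPM in papilloma 1 and 3.92 CPM in papilloma 2.

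Across the 6 libraries, the gene models other than Skint genes whose log2 (CPM + 0.5) followed Skint10 most closely, of 11837 compared, were Awat2, Hhatl, Cytl1, Gm973, Adh6a, 2310042D19Rik, Smtnl1, Ppara, Serpinb6e and 5031426D15Rik, with Pearson's r of 0.999 for Awat2 down to 0.992. Awat2, a wax synthase gene and a member of the sebaceous gland list, had 0.712 CPM in the tumour. It had 4.88 and 5.19 CPM in papilloma 1 and papilloma 2, and 43.2 CPM in skin. These correlations are descriptions over libraries that share the same skin sample and the same near-absence in culture. Of the 11837 models, 152 had r over 0.95. With the 4 biopsies alone, 0 of these 10 genes stayed among the 10 most like Skint10, so the list depends on the libraries used. Within the family, r with Skint10 was 0.995 for Skint6 and for Skint5, 0.981 for Skint11, 0.970 for Skint2, 0.962 for Skint7, 0.887 for Skint1 and 0.821 for Skint8. Of the 11837 other models, 4 had a higher r than Skint6 and 4 than Skint5. For Skint11, Skint2, Skint7, Skint1 and Skint8 it was 31, 60, 93, 485 and 942, so such values are not particular to the family.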

How the data were processed

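Gene expression was measured by RNA-seq in 6 mouse libraries. The authors deposited whole-number read counts and RPKM (counts per kilobase of model and per 1000000 counts) for 23726 gene models; the build is mm9, per the submitters' processing notes, with aligner, counter and strand setting not given in the sources used here. The samples, groups and units follow the labels and the file header.

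From the counts, CPM was computed with TMM factors over the 6 libraries (edgeR 4.0.16, limma 3.58.1, R 4.3.3). Genes were filtered with filterByExpr, and edgeR's quasi-likelihood test was fitted to the 4 biopsies over 16302 genes with Benjamini-Hochberg adjustment. Log2 ratios of CPM and the 4-fold rule had 0.5 CPM added, printed folds and percentages of skin had nothing added, and intervals of counts are exact at 95%. Alternatives were DESeq2 1.42.0, its size factors, total counts, deposited RPKM, other pseudocounts, no low-count filter, and each papilloma left out. The steps were tested on simulated data.

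Members and lists were chosen with earlier results of these data known. Named were all Skint models, the 10 models most like Skint10 by Pearson's r among those with at least 10 CPM, gene models within 500 kb, and per list up to 4 called genes with the lowest adjusted p, or the 2 highest in skin where none was called. Klrk1, Krt10 and Krt14 were named outside that rule, after their values were seen. Coordinates of promoters are in GRCm38.p6 and were not converted from mm9. Some genes of the lists are not reported here by name.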

Additional observations from a re-analysis of the deposited data

How the results depend on the processing

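None of 152 recomputed ratios of Skint levels changed sign, and 47 moved beyond the papilloma spread or the counting interval. The log2 ratio of Skint10 in papilloma over skin was -3.98, and it was -4.38 with total counts, -4.27 with deposited RPKM and -3.84 with a pseudocount of 1 CPM; without 1 papilloma it was -4.07 to -3.89. In tumour over skin it was -6.65, -7.77 with a pseudocount of 0.1 CPM, -5.91 with 1 CPM and -6.35 with deposited RPKM. The call of Skint1 as lower in tumour than in papilloma was lost with total counts; the cause was not tested. In papilloma against skin, 1953 genes rose and 2324 fell, against 1010 and 3455 with total counts, where the median of all genes was -0.47, and 2339 and 1733 with DESeq2's Wald test. Total calls over both directions stayed within 1.5 times in each comparison under each alternative that could be fitted, but higher calls in papilloma did not with total counts. Over the 4 biopsies alone, 0 of the 10 genes most like Skint10 were shared. Leaving out a papilloma leaves no residual degrees of freedom, so only ratios were recomputed. No paired analysis was possible because only papilloma has more than 1 library. Tumour counts of 1 to 10 limit the folds of Skint6, Skint11, Skint5, Skint2 and Skint10, and 1 library of skin and 1 of tumour limit every comparison.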
